A study of Mus musculus with 7 samples.

Results

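The genes of butyrate uptake and mitochondrial oxidation were taken as 9 named genes, found by their Entrez identifiers among the 18036 genes that had at least 1 read in any library. They were the transporter genes Slc16a1 and Slc5a8, the oxidation genes Acads, Acadm, Hadh and Etfa, the thiolase gene Acat1, the carnitine transferase gene Cpt1a and the coactivator gene Ppargc1a. All 9 had reads in all 7 libraries, and all 9 passed a filter of at least 1 RPKM (reads scaled to gene length and library depth) in at least 2 libraries, which 12061 genes passed.

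RNA of the colon epithelium was sequenced in 7 libraries. There were 3 PhIP/DSS libraries, 3 DSS libraries and 1 control library, and each was an equal mixture of RNA from 3 mice. All mice were female hCYP1A animals, which carry the human CYP1A genes, labelled C57BL/6 and 6 weeks old. PhIP/DSS mice had 2 doses of PhIP, a heterocyclic amine of cooked meat, at 100 mg/kg given 4 days apart, and a week later 1.5% dextran sulfate sodium (DSS), an agent that injures the colon lining, in drinking water for 5 days. DSS mice had the same 5 days of DSS alone, and control mice had no treatment. In both arms 1 library came from day 1, 1 from day 3 and 1 from day 7 after DSS. The labels give colitis on days 1 and 3, partial colitis on day 7 and normal tissue in the control. With 1 library for each condition, a value of a library has no replicate error, and its 95% Poisson interval covers counting error only.

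Butyrate, a fatty acid that gut bacteria release from fibre, is the preferred fuel of the absorptive colonocyte. It enters the cell through a proton-coupled and a sodium-coupled monocarboxylate transporter, is joined to coenzyme A and is oxidized in the mitochondria to acetyl-CoA, which feeds the tricarboxylic acid (TCA) cycle or ketone body synthesis. Long-chain fatty acids, unlike butyrate, need the carnitine shuttle to reach the same enzymes, and the coactivator PGC-1α, the product of Ppargc1a, drives the transcription of many genes of this machinery.

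The promoter windows below, of 250 bases before to 50 bases after the transcription start in RefSeq on GRCm38.p6, are shown because the RNA levels of these genes differed in how far they departed from the control. Slc5a8 and Ppargc1a are shown for the lowest levels relative to the control, Slc16a1 for the highest GC content, and Acadm and Cpt1a for a match to a nuclear receptor motif. The windows lie at chr10:88885742-88886041 on the plus strand for Slc5a8, chr5:51567676-51567975 on the minus strand for Ppargc1a, chr3:104638414-104638713 on the plus strand for Slc16a1, chr3:153944594-153944893 on the minus strand for Acadm and chr19:3323051-3323350 on the plus strand for Cpt1a. Each is printed 5′ to 3′ on its gene's strand, and capitals mark the motif match, which reads as the reverse complement of AGGTCA.
Slc5a8: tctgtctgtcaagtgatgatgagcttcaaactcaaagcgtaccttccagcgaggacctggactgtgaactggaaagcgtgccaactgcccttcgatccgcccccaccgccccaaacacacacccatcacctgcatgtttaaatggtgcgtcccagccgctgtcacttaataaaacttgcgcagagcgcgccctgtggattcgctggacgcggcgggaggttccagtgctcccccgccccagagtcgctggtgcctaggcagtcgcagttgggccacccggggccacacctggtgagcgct
Ppargc1a: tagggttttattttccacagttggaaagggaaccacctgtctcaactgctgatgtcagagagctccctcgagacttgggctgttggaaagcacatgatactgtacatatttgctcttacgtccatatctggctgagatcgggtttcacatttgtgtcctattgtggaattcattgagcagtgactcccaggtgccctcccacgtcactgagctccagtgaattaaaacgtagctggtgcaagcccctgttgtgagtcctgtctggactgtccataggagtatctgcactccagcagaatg
Slc16a1: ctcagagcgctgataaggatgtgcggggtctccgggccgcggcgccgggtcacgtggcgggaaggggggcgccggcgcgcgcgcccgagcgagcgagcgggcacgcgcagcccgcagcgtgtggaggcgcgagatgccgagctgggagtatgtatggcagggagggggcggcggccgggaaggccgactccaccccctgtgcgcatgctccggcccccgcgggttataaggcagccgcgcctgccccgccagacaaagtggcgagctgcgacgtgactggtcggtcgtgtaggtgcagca
Acadm: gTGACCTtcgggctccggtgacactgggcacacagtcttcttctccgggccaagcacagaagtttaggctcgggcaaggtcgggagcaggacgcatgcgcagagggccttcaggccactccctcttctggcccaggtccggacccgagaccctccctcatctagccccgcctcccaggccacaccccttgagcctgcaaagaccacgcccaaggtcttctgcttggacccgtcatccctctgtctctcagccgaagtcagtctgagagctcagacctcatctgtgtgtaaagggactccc
Cpt1a: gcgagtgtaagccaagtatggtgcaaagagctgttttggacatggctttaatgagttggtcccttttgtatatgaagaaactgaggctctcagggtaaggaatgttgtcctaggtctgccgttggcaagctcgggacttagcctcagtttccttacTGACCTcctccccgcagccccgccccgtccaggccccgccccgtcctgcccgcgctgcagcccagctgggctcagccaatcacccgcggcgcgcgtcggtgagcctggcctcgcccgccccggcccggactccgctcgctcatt
A window was found for 8 of the 9 genes and none for Acat1. The Slc16a1 window held 73.7% G and C and the Ppargc1a window 48.7%, against a median of 52.7% over all 32851 RefSeq promoter windows of this length. The observed number of CpG dinucleotides over that given by the base composition was 1.06 in Slc16a1, 0.733 in Slc5a8 and 0.282 in Ppargc1a, against a median of 0.384 over all windows. The hexamer AGGTCA, bound by nuclear receptors, was in Acadm (positions -249 to -244 from the start) and Cpt1a (-94 to -89) and in 16.3% of all windows. The PPAR and HNF4 type repeat, AGGTCA then any base then AGGTCA (0.0396% of all windows), the estrogen-related receptor motif TCAAGGTCA (0.423%), the NRF1 motif, GCGCAT followed directly by GCGC (0.971%), and TATAAA (13.6%) were in none of the 8. Exact matches on both strands were counted, the hexamer lies within the repeat and within TCAAGGTCA, and a match is a description of letters only. In the Ppargc1a and Cpt1a genes the annotated span extends upstream of the window.

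On the 12061 genes tested the treated libraries held 8230188 to 8755293 unique reads and the control held 7634230. The summed level of 6 epithelial markers was 7849 to 9402 RPKM in the treated libraries and 7682 RPKM in the control, and that of 10 absorptive colonocyte markers was 3513 to 5856 RPKM against 5289 RPKM, while single colonocyte markers differed in direction. Car4 was at 402 to 684 RPKM and Slc26a3 at 110.0 to 175 RPKM in the treated libraries, against 1326 and 469.8 RPKM in the control, whereas Krt20 was at 706 to 1008 RPKM in the treated libraries and 448 RPKM in the control. Neutrophil markers (6 genes) summed to 797, 30.8 and 68.3 RPKM on days 1, 3 and 7 in PhIP/DSS and to 34.8, 1123 and 452 RPKM in DSS, against 2.82 RPKM in the control. Fibroblast markers (6 genes) summed to 31.8 to 152 RPKM in the treated libraries and 6.66 RPKM in the control. In tissue RNA, fewer cells of a type and less RNA per cell cannot be told apart.

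After DSS most of the 9 genes had less RNA than in the untreated colon. The gap was widest for Ppargc1a, except on DSS day 7, where Slc5a8 was lower (0.369 against 0.387 times the control). Slc5a8 was nearer to the control than Cpt1a and Slc16a1 on PhIP/DSS day 3 (0.815 against 0.745 and 0.756). It was also nearer than Acads on PhIP/DSS day 7 (0.672 against 0.592). On days 1, 3 and 7 the numbers below the control were 7, 8 and 9 of 9 in PhIP/DSS and 6, 8 and 9 of 9 in DSS. The median ratio of the 9 to the control was 0.777, 0.828 and 0.768 in PhIP/DSS and 0.875, 0.725 and 0.740 in DSS. Over all genes tested the median log2 ratio was -0.06 to 0.02. It was lowest in DSS day 7, where more genes lay below the control than above it. The share of all genes below the control in each single library is not given here. In the fit over both arms, 5957, 5938 and 6168 of 12061 genes were below the control on days 1, 3 and 7. Of the 9 genes, 7, 8 and 9 were below it in that fit. Acads, Etfa and, in DSS only, Acat1 were at or above the control on day 1. Scaling by TMM, a correction for library composition, put Acads on PhIP/DSS day 1 below the control, so that 8 of 9 were. It moved no other of the 6 counts by library. All 6 treated libraries were below the control for 6 of the 9 genes, Slc16a1, Slc5a8, Acadm, Hadh, Cpt1a and Ppargc1a, as for 29.7% of all genes tested. All 6 were above it for 0 of the 9, as for 25.4% of genes. The 6 ratios of a gene share the 1 control library, so a low or high control value enters all of them.

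**Figure D1:**
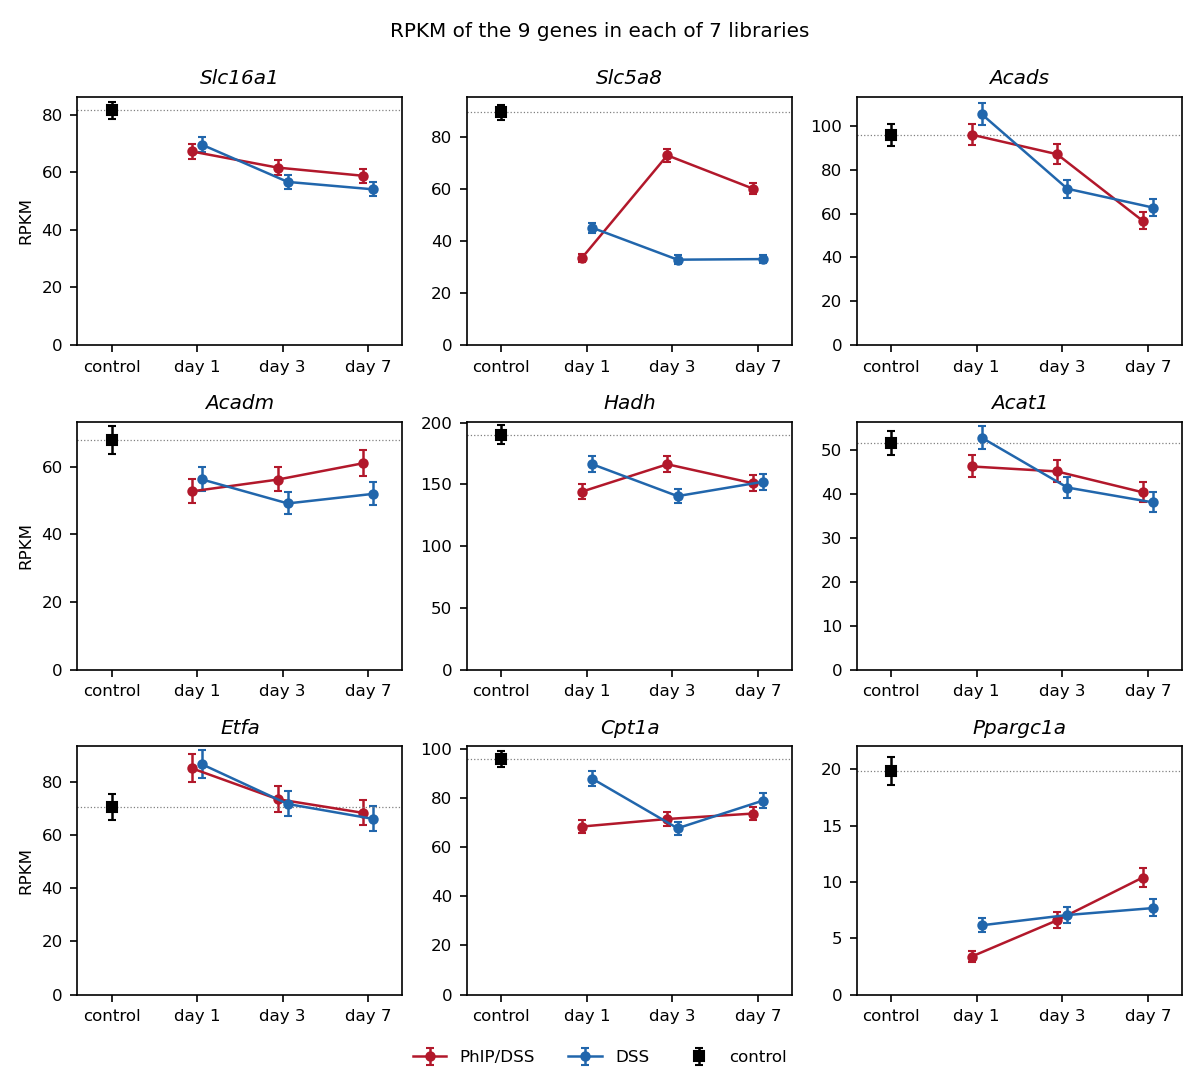
RPKM of each of the 9 genes (vertical axes, from 0) in the control library and on days 1, 3 and 7 after DSS (horizontal axes), with red points for PhIP/DSS, blue points for DSS, a black square for control, 1 library a point, and bars for 95% Poisson intervals of the reads. All treated points of Slc16a1, Slc5a8, Acadm, Hadh, Cpt1a and Ppargc1a lie below the dotted control level, while Etfa lies above it on day 1.

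The transporter genes were both lower after DSS, Slc16a1 in similar measure in both arms and Slc5a8 unequally. Slc16a1 (Entrez gene 20501, chr3:104638664-104658462) encodes MCT1, the proton-coupled carrier. It stood at 67.2, 61.6 and 58.8 RPKM on days 1, 3 and 7 in PhIP/DSS and at 69.5, 56.7 and 54.1 RPKM in DSS, against 81.5 RPKM in the control. The level was lower on each later day in both arms, and no treated library reached the control interval of 78.5 to 84.6 RPKM. The fitted log2 fold change from the control, over both arms, was -0.26 (SE 0.11) on day 1, -0.44 (SE 0.11) on day 3 and -0.50 (SE 0.11) on day 7, with edgeR adjusted p of 0.180, 0.182 and 0.161. With either day 1 library left out the fitted values were -0.44 on day 3 and -0.50 on day 7. Both fits take these values from the same day 3, day 7 and control libraries.

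Slc5a8 (Entrez gene 216225, chr10:88885992-88929515) encodes SMCT1, the sodium-coupled carrier of the apical membrane. It stood at 33.4, 73.0 and 60.2 RPKM on days 1, 3 and 7 in PhIP/DSS and at 45.1, 32.8 and 33.1 RPKM in DSS, against 89.5 RPKM in the control. The arms ran in opposite directions over time: PhIP/DSS day 7 was 1.80 times PhIP/DSS day 1, and DSS day 7 was 0.732 times DSS day 1. The 3 libraries with the least Slc5a8 (DSS day 3, DSS day 7 and PhIP/DSS day 1) were those with the highest neutrophil marker sums, 452 to 1123 RPKM, and the part of these cells in the Slc5a8 level was not tested. Its log2 fold change from the control was -1.14 (SE 0.47) on day 1, -0.81 (SE 0.47) on day 3 and -0.97 (SE 0.46) on day 7, with edgeR adjusted p of 0.172, 0.390 and 0.362. Leaving out the DSS day 1 library gave -1.93 on day 1, -0.84 on day 3 and -0.98 on day 7. Leaving out PhIP/DSS day 1 gave -0.50 on day 1 and the same values on days 3 and 7. Both fits take the difference between the arms from the same day 3 and day 7 libraries. With either day 1 library left out, day 1 rests on 1 treated library, and the fit fills in the missing arm with that difference. Both day 1 values thus lie outside the log2 ratios of the day 1 libraries themselves, -0.99 in DSS and -1.42 in PhIP/DSS.

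Of 10 other genes of short-chain transport and sensing, 6 passed the filter on low levels, and at an unadjusted p under 0.05 Slc16a3 alone was above the control on each day and 0 were below it. Among those that did not pass, Slc16a7, the carrier MCT2, had 2 to 10 reads in the treated libraries and 19 reads in the control, and Ffar3, a receptor for short-chain fatty acids, had 1 to 4 reads in the treated libraries and 11 reads in the control. Emb, another chaperone of monocarboxylate carriers, and Hcar2 were under 1 RPKM in the control and passed the filter only through treated libraries, so no direction is read from them. Slc16a3, the lactate-exporting carrier MCT4, stood at 47.0, 28.5 and 23.9 RPKM in PhIP/DSS and 23.6, 55.8 and 41.2 RPKM in DSS, against 7.43 RPKM in the control. Its level relative to Slc16a1 was 0.699, 0.463 and 0.407 in PhIP/DSS and 0.340, 0.985 and 0.763 in DSS, against 0.0912 in the control, so DSS day 3 had nearly as much RNA of it per length as of Slc16a1. Bsg, the chaperone subunit of both carriers, was at 436 to 529 RPKM in the treated libraries and 371 RPKM in the control. Ffar2, another receptor for these fatty acids, was at 3.63 to 8.60 RPKM in the treated libraries and 4.10 RPKM in the control. Hcar2, a receptor for butyrate and β-hydroxybutyrate that neutrophils and macrophages also carry, had 11 to 190 reads in the treated libraries and 3 reads in the control. Its level was 11.4, 0.671 and 2.51 RPKM in PhIP/DSS and 0.824, 7.49 and 5.23 RPKM in DSS. The 3 libraries over 5 RPKM were again those with the highest neutrophil marker sums, and the part of these cells was not tested.

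The acyl-CoA dehydrogenase genes differed from each other in timing. Acads (Entrez gene 11409, chr5:115110299-115119346) encodes the short-chain enzyme that takes butyryl-CoA. It stood at 96.1, 87.2 and 56.8 RPKM on days 1, 3 and 7 in PhIP/DSS and at 105, 71.4 and 62.8 RPKM in DSS, against 95.9 RPKM in the control. Both day 1 libraries were at or above the control and both day 7 libraries below every other library. Day 7 was 0.591 times day 1 in PhIP/DSS and 0.596 times day 1 in DSS. The fitted log2 fold change was 0.06 (SE 0.17) on day 1, -0.25 (SE 0.17) on day 3 and -0.66 (SE 0.17) on day 7, where the edgeR adjusted p was 0.193. Without the DSS day 1 library the day 1 value was -0.04, resting on 1 treated library. The day 7 value was -0.65 with either day 1 library left out.

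Acadm (Entrez gene 11364, chr3:153922353-153944643) encodes the medium-chain enzyme. It stood at 52.7, 56.2 and 61.0 RPKM on days 1, 3 and 7 in PhIP/DSS and at 56.2, 49.1 and 52.0 RPKM in DSS, against 67.8 RPKM in the control. All 6 treated libraries were below the control, by less than the 1.5-fold mark in each, and the 95% Poisson interval of PhIP/DSS day 7 (57.4 to 64.8 RPKM) overlapped that of the control (63.8 to 72.0 RPKM). The fitted log2 fold change was -0.32, -0.34 and -0.24 on days 1, 3 and 7 (SE 0.14 each), with edgeR adjusted p of 0.187, 0.280 and 0.425. Without DSS day 1 the day 1 value was -0.47, and without PhIP/DSS day 1 it was -0.18. Each rests on 1 treated library, with the missing arm filled in by the fit.

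Hadh (Entrez gene 15107, chr3:131233419-131272101) encodes the short- and medium-chain 3-hydroxyacyl-CoA dehydrogenase and was the most abundant of the 9 per length. It stood at 144, 166 and 151 RPKM on days 1, 3 and 7 in PhIP/DSS and at 166, 141 and 152 RPKM in DSS, against 190.1 RPKM in the control. The treated libraries lay close together and none overlapped the control within its interval of 183 to 198 RPKM. In the fit it was at -0.30, -0.28 and -0.30 on the log2 scale against the control (SE 0.16 each), with edgeR adjusted p of 0.249, 0.377 and 0.393. Without DSS day 1 the day 1 value was -0.46, and without PhIP/DSS day 1 it was -0.15. Each rests on 1 treated library, with the missing arm filled in by the fit.

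Acat1 (Entrez gene 110446, chr9:53580522-53610350) encodes the mitochondrial acetoacetyl-CoA thiolase, which ends the oxidation of butyrate and also serves ketone body synthesis and use. It stood at 46.4, 45.2 and 40.5 RPKM on days 1, 3 and 7 in PhIP/DSS and at 52.9, 41.6 and 38.2 RPKM in DSS, against 51.6 RPKM in the control. DSS day 1 was just above the control within counting error, and the other 5 treated libraries were below it. Against the control its log2 fold change was -0.06 on day 1 (0.07 without PhIP/DSS day 1), -0.23 on day 3 and -0.37 (SE 0.13) on day 7, with an edgeR adjusted p of 0.281 on day 7.

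Etfa (Entrez gene 110842, chr9:55454436-55512243) encodes the α subunit of the flavoprotein that takes electrons from all acyl-CoA dehydrogenases. It stood at 85.1, 73.5 and 68.4 RPKM on days 1, 3 and 7 in PhIP/DSS and at 86.6, 71.7 and 66.1 RPKM in DSS, against 70.4 RPKM in the control. The arms lay within counting error of each other on every day, both day 1 libraries were above the control, and the day 3 and day 7 libraries overlapped it. Its log2 fold change was 0.28 (SE 0.11, edgeR adjusted p = 0.159) on day 1, 0.07 on day 3 and -0.04 on day 7.

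Cpt1a (Entrez gene 12894, chr19:3322326-3385735) encodes the outer-membrane carnitine palmitoyltransferase that commits long-chain acyl groups to mitochondrial entry. It stood at 68.3, 71.4 and 73.6 RPKM on days 1, 3 and 7 in PhIP/DSS and at 87.8, 67.6 and 78.9 RPKM in DSS, against 95.8 RPKM in the control. DSS day 1 was the nearest to the control and its interval of 84.8 to 90.8 RPKM did not reach that of the control, 92.5 to 99.2 RPKM. The fitted log2 fold change was -0.31, -0.44 and -0.30 (SE 0.16 each), with edgeR adjusted p of 0.234, 0.248 and 0.385. Without DSS day 1 it was -0.48 on day 1 and -0.44 on day 3, and without PhIP/DSS day 1 it was -0.15 and -0.44. Each of these day 1 values rests on 1 treated library, with the missing arm filled in by the fit. A long noncoding RNA gene, Gm36532, lies within Cpt1a over 4622 bases (chr19:3372869-3377490) and is not among the genes of the tables.

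Ppargc1a (Entrez gene 19017, chr5:51454249-52115853) had the largest departure from the control of the 9. It stood at 3.37, 6.60 and 10.4 RPKM on days 1, 3 and 7 in PhIP/DSS and at 6.16, 7.07 and 7.68 RPKM in DSS, against 19.8 RPKM in the control. The reads behind these values were 187, 361 and 567 in PhIP/DSS and 349, 403 and 412 in DSS, against 988 in the control. PhIP/DSS day 1 was the lowest library, at 0.170 times the control, and PhIP/DSS day 7 the nearest to it, at 52.4%, and the treated libraries did not overlap the control. It was the only one of the 9 genes with all 6 treated libraries at least 1.5-fold below the control, which held for 4.01% of all genes tested. The fitted log2 fold change was -2.09 (SE 0.36, edgeR unadjusted p = 0.00267, adjusted p = 0.071) on day 1, -1.51 (SE 0.36, adjusted p = 0.174) on day 3 and -1.10 (SE 0.36, adjusted p = 0.254) on day 7. DESeq2 called days 1 and 3 (-2.09, adjusted p = 0.000122, and -1.52, adjusted p = 0.0184). Without the DSS day 1 library the edgeR values were -2.64, -1.51 and -1.12 on days 1, 3 and 7. Without PhIP/DSS day 1 they were -1.62, -1.51 and -1.12, with days 3 and 7 taken from the same libraries in both fits. With the missing arm filled in by the fit, both day 1 values lie outside the log2 ratios of the day 1 libraries, -2.56 in PhIP/DSS and -1.69 in DSS. Adipocytes also express Ppargc1a. The sum of 8 adipocyte markers was 177, 25.1 and 19.4 RPKM in PhIP/DSS and 23.4, 27.0 and 17.4 RPKM in DSS, against 87.5 RPKM in the control, of which 62.5 RPKM was Pck1, a gene that epithelium also expresses. Adipoq, the defining marker, was at 6.94 RPKM in PhIP/DSS day 1, where Ppargc1a was lowest, at 0 to 0.193 RPKM in the other treated libraries and at 1.48 RPKM in the control, and the part of these cells in the result was not tested.

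**Figure D2:**
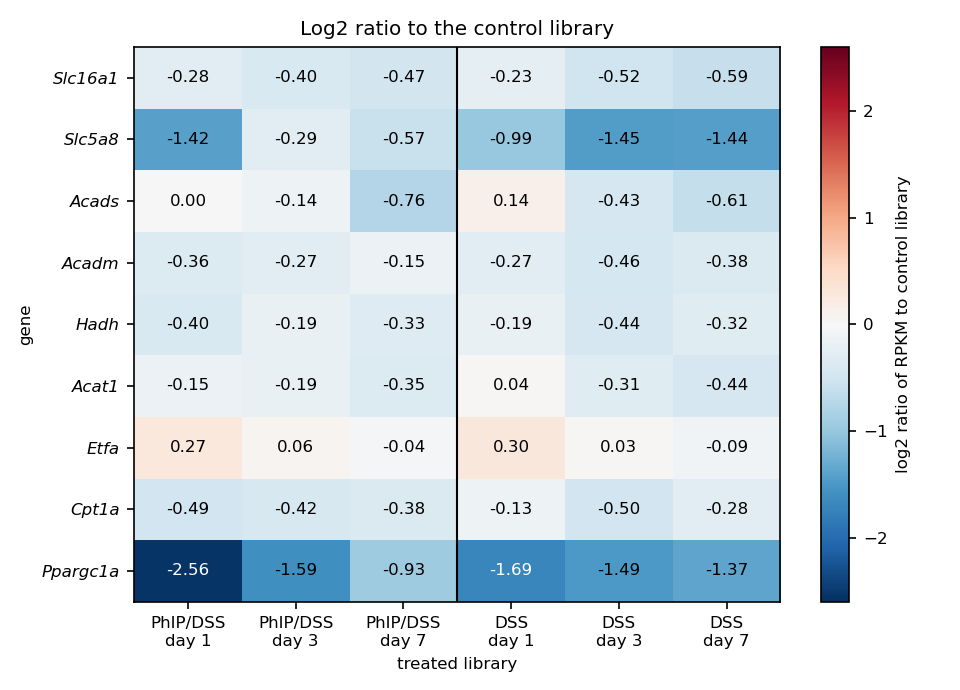
Log2 ratio of RPKM to the control library for the 9 genes (rows) in the 6 treated libraries (columns, PhIP/DSS left of DSS), blue for below and red for above the control, 1 library a cell with no replicate. Ppargc1a and Slc5a8 hold the darkest cells, down to -2.56 and -1.45, and Etfa the warmest, up to 0.30.

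In the edgeR fit across 12061 genes, which had 2 residual degrees of freedom, 0 of the 9 genes and 0 genes in all (0%) passed an adjusted p of 0.05 on day 1, on day 3 or on day 7 against the control, on day 7 against day 1, or between the arms. At an unadjusted p under 0.05 there were 1950, 1046 and 964 genes below and 1982, 1245 and 1112 above the control on days 1, 3 and 7, 1693 lower and 1479 higher on day 7 than on day 1, and 200 lower and 242 higher in PhIP/DSS than in DSS. DESeq2 called 1258, 432, 482, 703 and 18 genes in the same 5 comparisons, and limma on log2(RPKM + 1) called 0, 2, 2, 0 and 0. Below the control at an unadjusted p under 0.05 was 1 of the 9 genes on day 1, Ppargc1a, beside 16.2% of all genes. On day 3 there were 3 of 9, Slc16a1, Cpt1a and Ppargc1a, beside 8.67%, and on day 7 there were 4 of 9, Slc16a1, Acads, Acat1 and Ppargc1a, beside 7.99%. Above the control at that p were 0 of 9 on each day, beside 16.4%, 10.3% and 9.22% of genes. Leaving out a day 1 library raised the calls over all genes as well as among the 9. Those counts are given beside each other in the last section, and in these fits day 1 rests on 1 treated library.

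By single libraries, with no test, the genes at least 1.5-fold below the control were Slc5a8 and Ppargc1a in PhIP/DSS day 1 (19.7% of all genes), Ppargc1a in PhIP/DSS day 3 (11.2%) and Acads and Ppargc1a in PhIP/DSS day 7 (10.5%). In DSS they were Slc5a8 and Ppargc1a on day 1 (13.8%) and on day 3 (14.3%), joined by Slc16a1 and Acads on day 7 (12.5%). None of the 9 was 1.5-fold above the control in any library, beside 22.7%, 9.34% and 11.8% of genes on days 1, 3 and 7 in PhIP/DSS and 13.1%, 13.2% and 12.1% in DSS.

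**Figure D3:**
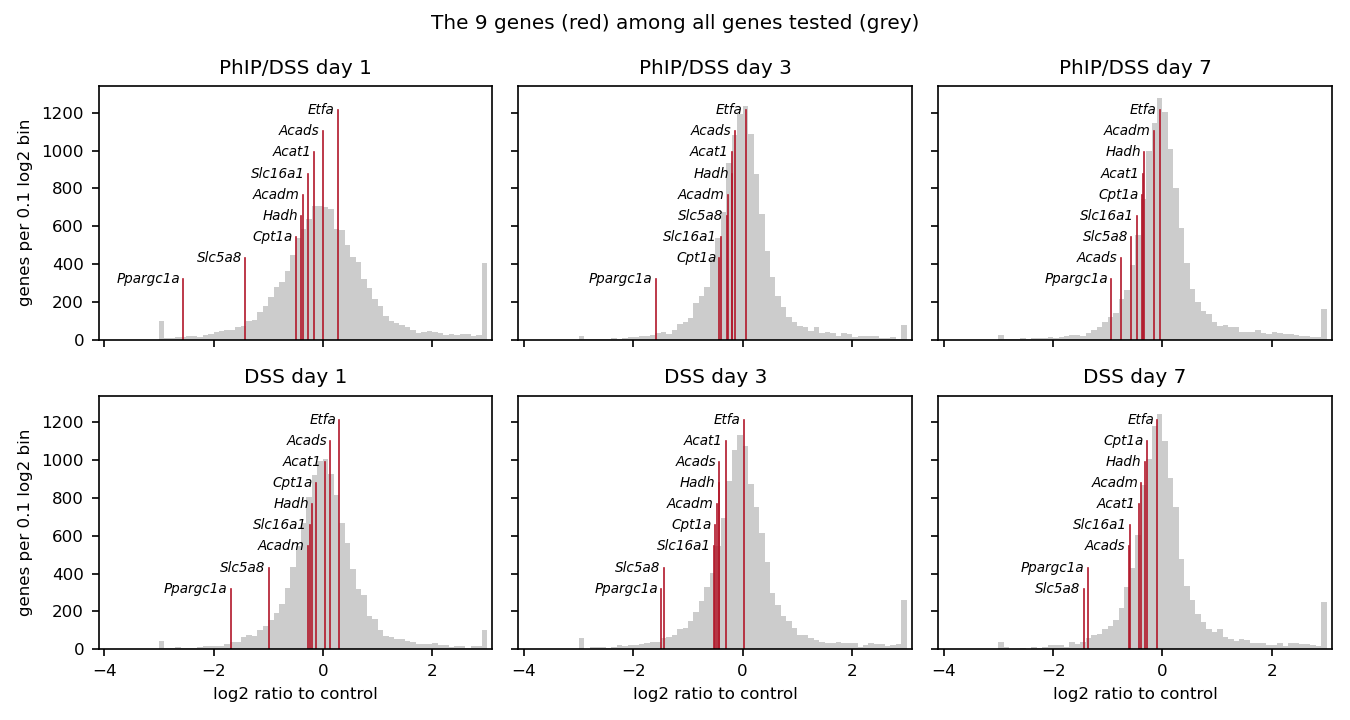
Number of genes (vertical axes) by log2 ratio of RPKM to the control library (horizontal axes, 0.1 a bin, values beyond 3 in the end bins) for all 12061 genes tested, with PhIP/DSS in the top panels and DSS in the bottom panels. Red lines mark the 9 genes, their heights only spacing the names: Ppargc1a lies in the left tail in every panel, Slc5a8 in the tail of DSS days 3 and 7 and PhIP/DSS day 1, and the others within the bulk.

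The 9 genes differed in how much they varied. The SD over the 7 libraries on the log2(RPKM + 1) scale was 0.69 for Ppargc1a, 0.59 for Slc5a8 and 0.34 for Acads, while the other 6 had 0.15 to 0.20, against a median of 0.21 over all genes tested. That put Ppargc1a above 94.5% and Slc5a8 above 92.1% of genes, and Hadh above only 26.0%. By mean level per length the order was reversed at its ends, since Hadh (159 RPKM) exceeded 96.1% of genes and Ppargc1a (8.73 RPKM) 45.3%. On the log2(RPKM + 1) scale the mean centred profile of the 9 was below the control by 0.56, 0.36 and 0.43 on days 1, 3 and 7 in PhIP/DSS. In DSS it was below by 0.32, 0.60 and 0.59. Each gene counted equally in this mean, and Ppargc1a and Slc5a8 were the most variable of the 9.

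Between day 7 and day 1 the genes split. Both day 7 libraries were below both day 1 libraries for Slc16a1, Acads, Acat1 and Etfa, 4 of 9 (31.9% of all genes), and above both for Ppargc1a, 1 of 9 (25.7%). The same genes had an unadjusted p under 0.05, 4 lower and 1 higher, beside 14% of all genes lower and 12.3% higher. Acads had the largest lower value, with a log2 fold change of -0.72 (SE 0.14, edgeR adjusted p = 0.0934). DESeq2 called Acads (-0.72, adjusted p = 0.00537), beside 703 of all 12061 genes. In edgeR the Acads value was -0.62 when the DSS library of day 1 was dropped and -0.81 when the PhIP/DSS one was. Both of those fits use the same day 7 libraries, keep 1 treated library on day 1 and fill in its missing arm. Etfa was at -0.32 (SE 0.09, edgeR adjusted p = 0.121), Acat1 at -0.30 (SE 0.11, edgeR adjusted p = 0.182) and Slc16a1 at -0.24 (SE 0.09, edgeR adjusted p = 0.183). Ppargc1a was at 0.99 (SE 0.32, edgeR adjusted p = 0.146), with day 7 at 3.08 times day 1 in PhIP/DSS and 1.25 times in DSS. Over the alternative settings its value ran from 0.50 to 1.53, the highest without DSS day 1, where day 1 rests on 1 library. For Slc5a8 the arms differed in sign, and the fitted value was 0.17 (SE 0.40, edgeR adjusted p = 0.825). With 1 treated library kept on day 1, it was 0.95 when the DSS one was dropped and -0.48 when the PhIP/DSS one was. Cpt1a, Hadh and Acadm were within 0.09 of 0.

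Over the 3 days most of the 9 genes were, on average, at similar levels in PhIP/DSS and DSS, while several differed on single days. The widest single-day departures were those of Slc5a8 and Ppargc1a, given below. Cpt1a was at 0.778 times DSS on day 1 (95% counting interval 0.738 to 0.819). At an unadjusted p under 0.05 there were 0 of 9 in both directions, beside 1.66% of genes lower and 2.01% higher in PhIP/DSS than in DSS. Slc5a8 had the largest log2 fold change, 0.52 (SE 0.33, edgeR adjusted p = 0.998), and Ppargc1a followed at -0.18 (SE 0.26, edgeR adjusted p = 0.998), with the other 7 within 0.15 of 0. The Slc5a8 value covers a ratio of PhIP/DSS to DSS of 0.740 on day 1 (95% counting interval 0.693 to 0.791), 2.22 on day 3 (2.09 to 2.36) and 1.82 on day 7 (1.71 to 1.94). With either day 1 library left out its log2 fold change was 0.99. Both fits then take the arm difference from the same day 3 and day 7 libraries, so they are not separate results. Neither uses the day 1 ratio of 0.740. The Ppargc1a ratio was 0.548 on day 1 (0.456 to 0.656), 0.934 on day 3 (0.808 to 1.08) and 1.35 on day 7 (1.19 to 1.54), and its log2 fold change was 0.15 without either day 1 library. By single days, Ppargc1a was the only gene of the 9 at least 1.5-fold lower in PhIP/DSS than in DSS on day 1 (5.58% of all genes), and Slc5a8 the only gene at least 1.5-fold higher on day 3 (5.12%) and on day 7 (5.4%). The counts in the other direction were 0 of 9 on each day, beside 10.3%, 6.74% and 5.24% of genes.

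The remaining 95 genes of the pathway were grouped in 9 lists, of which 86 genes were tested, and 0 of them passed the adjusted p in any of the 5 comparisons. At an unadjusted p under 0.05, 14, 8 and 22 of the 86 were below the control on days 1, 3 and 7, beside 16.2%, 8.67% and 7.99% of all genes tested, so the counts on days 1 and 3 were near the background. Above the control were 15, 4 and 3 of the 86, beside 16.4%, 10.3% and 9.22% of all genes. The day 1 count includes Acaa1b, which passed the filter only through treated libraries. Between day 7 and day 1, 31 were lower and 3 higher, beside 14% and 12.3% of all genes, and between the arms 2 were lower and 0 higher, beside 1.66% and 2.01%. These shares of all genes are also the background for the counts of each single list.

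Among 13 other genes of mitochondrial β-oxidation, 0, 0 and 4 were below the control and 2, 1 and 1 above it at an unadjusted p under 0.05 on days 1, 3 and 7. Between day 7 and day 1, 7 of the 13 were lower and 0 higher. Acadl, the long-chain acyl-CoA dehydrogenase, was above the control throughout, at 148, 129 and 144 RPKM in PhIP/DSS and 139.9, 136 and 130.2 RPKM in DSS, against 77.4 RPKM in the control. Its log2 fold change was 0.89, 0.80 and 0.85 (SE 0.12 each, edgeR adjusted p = 0.071, 0.138 and 0.108). The level of Acadl relative to Acads was 1.54, 1.48 and 2.54 in PhIP/DSS and 1.33, 1.90 and 2.07 in DSS, against 0.806 in the control, so the long-chain enzyme had less RNA per length than the short-chain one only in the control library. Etfb, the partner subunit of Etfa, was at 87.9, 70.6 and 55.4 RPKM in PhIP/DSS and 98.2, 68.8 and 61.5 RPKM in DSS, against 62.0 RPKM in the control, the same order of days as Etfa. Its day 7 to day 1 log2 fold change was -0.64 (SE 0.11, edgeR adjusted p = 0.0934). Hadha, the α subunit of the trifunctional protein, had -0.46 (SE 0.10, edgeR adjusted p = 0.0961) in the same comparison.

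In acyl-CoA activation and the carnitine shuttle 11 of 14 genes were tested, and 4, 1 and 3 were below the control and 1, 0 and 1 above it at an unadjusted p under 0.05 on days 1, 3 and 7. Acsl3, a long-chain acyl-CoA synthetase, was at 43.8, 63.2 and 64.9 RPKM in PhIP/DSS and 53.3, 56.0 and 58.2 RPKM in DSS, against 84.4 RPKM in the control. Slc25a20, the carnitine and acylcarnitine carrier that works downstream of Cpt1a, lay above the control in all 6, at 95.9 to 119 RPKM against 84.5 RPKM. Cpt2, the inner-membrane transferase, was at 58.0, 47.8 and 40.2 RPKM in PhIP/DSS and 62.3, 40.4 and 41.7 RPKM in DSS, against 45.4 RPKM in the control. Acsm3, a medium-chain acyl-CoA synthetase that accepts butyrate and was named after its values were seen, was at 22.7, 49.2 and 42.1 RPKM in PhIP/DSS and 37.5, 26.0 and 26.7 RPKM in DSS, against 89.3 RPKM in the control. The order of the days within each arm was the same as for Slc5a8, with DSS days 3 and 7 close together in both genes.

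All 4 ketone body genes were tested, and 1, 1 and 2 were below the control at an unadjusted p under 0.05 on days 1, 3 and 7, with 0 above it. Bdh1, the β-hydroxybutyrate dehydrogenase, was at 50.2, 45.8 and 35.03 RPKM in PhIP/DSS and 65.6, 46.0 and 37.1 RPKM in DSS, against 50.7 RPKM in the control. Its day 7 to day 1 log2 fold change was -0.64 (SE 0.12, edgeR adjusted p = 0.0934). Oxct1, the enzyme that starts the use of ketone bodies, had its lowest level on day 1 in both arms, at 59.2, 96.8 and 112 RPKM in PhIP/DSS and 75.1, 76.2 and 91.9 RPKM in DSS, against 139.6 RPKM in the control, with -1.06 on day 1 (SE 0.23, edgeR adjusted p = 0.074).

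The 15 TCA cycle genes were all tested. Their median log2 fold change was -0.01, -0.14 and -0.31 on days 1, 3 and 7. On day 7 all 15 were fitted below the control, beside 6168 of all 12061 genes. Of the 15, 8 did so at an unadjusted p under 0.05, beside 7.99% of all genes. Cs, citrate synthase, was at 257, 259 and 240.1 RPKM in PhIP/DSS and 298, 281 and 228 RPKM in DSS, against 369 RPKM in the control. Idh3a, a subunit of isocitrate dehydrogenase, was at 79.6, 71.9 and 59.2 RPKM in PhIP/DSS and 74.4, 63.1 and 52.4 RPKM in DSS, against 92.4 RPKM. Mdh2, mitochondrial malate dehydrogenase, had a day 7 to day 1 log2 fold change of -0.62 (SE 0.08, edgeR adjusted p = 0.0934). General mitochondrial genes (10 of 10 tested) showed a different pattern: 5, 2 and 0 were above the control at an unadjusted p under 0.05 on days 1, 3 and 7, and 0, 0 and 1 below it. Hspd1, a matrix chaperone, was at 216 RPKM on day 1 in PhIP/DSS and 163 RPKM on day 1 in DSS, 80.8 and 81.1 RPKM on day 7, against 63.4 RPKM in the control, and Tomm40, the outer-membrane import pore, had a log2 fold change of 1.05 (SE 0.16, edgeR adjusted p = 0.071) on day 1. In these same day 1 libraries Ppargc1a was at its lowest in both arms.

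Among 12 regulators of fat oxidation besides Ppargc1a, 6, 3 and 3 were below the control at an unadjusted p under 0.05 on days 1, 3 and 7 and 1, 0 and 0 above it. Ppara, the nuclear receptor that Ppargc1a coactivates on fat oxidation genes, was at 2.5, 2.04 and 1.72 RPKM in PhIP/DSS and 3.06, 2.11 and 1.67 RPKM in DSS, against 5.55 RPKM in the control. Its log2 fold change was -1.01, -1.40 and -1.68 (SE 0.18 each), with edgeR adjusted p of 0.071, 0.129 and 0.0842, and the distance from the control grew with the day, unlike that of Ppargc1a. Ppard was at 101 to 122 RPKM in the treated libraries and 168 RPKM in the control, and Hnf4a at 263 to 328 RPKM against 341 RPKM. Pparg, a nuclear receptor abundant in colon epithelium, was at 66.7, 51.5 and 41.0 RPKM in PhIP/DSS and 64.6, 54.3 and 58.4 RPKM in DSS, against 37.3 RPKM in the control, above it in all 6. Ppargc1b, the paralog of Ppargc1a, named after its values were seen, was at 9.86 to 13.2 RPKM in PhIP/DSS and 11.96 to 18.3 RPKM in DSS, against 18.8 RPKM in the control. The ratio of Ppargc1a to Ppargc1b was 0.283, 0.501 and 1.05 in PhIP/DSS and 0.336, 0.551 and 0.642 in DSS, against 1.06 in the control.

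Among genes known to respond to PPARs (6 of 8 tested), Pdk4 and Plin2 were above the control at an unadjusted p under 0.05 on day 1 and 0 were below it. Angptl4, a lipoprotein lipase inhibitor at 0.340 RPKM in the control, passed the filter only through treated libraries. Pdk4, a kinase that shuts pyruvate out of oxidation, was at 9.16, 2.44 and 1.07 RPKM in PhIP/DSS and 6.60, 2.18 and 2.24 RPKM in DSS, against 1.17 RPKM in the control. PhIP/DSS day 1 had the highest level of Pdk4, Plin2 (121 RPKM), Cidec (11.1 RPKM) and Angptl4 (5.56 RPKM), genes that adipocytes also express, and it was the library with the highest adipocyte marker sum, 177 RPKM. The part of these cells was not tested. In peroxisomal oxidation (9 of 9 tested), 1 gene was below the control at an unadjusted p under 0.05 on each day and 2, 0 and 0 above it. Among those above on day 1 was Acaa1b, at 0.156 RPKM in the control. It passed the filter only through treated libraries, so no direction is read from it. The median log2 fold change of the list, with Acaa1b included, was -0.22, -0.07 and -0.15. Acaa1a, a peroxisomal thiolase, was at 15.5 to 20.1 RPKM in the treated libraries and 22.6 RPKM in the control.

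**Figure D4:**
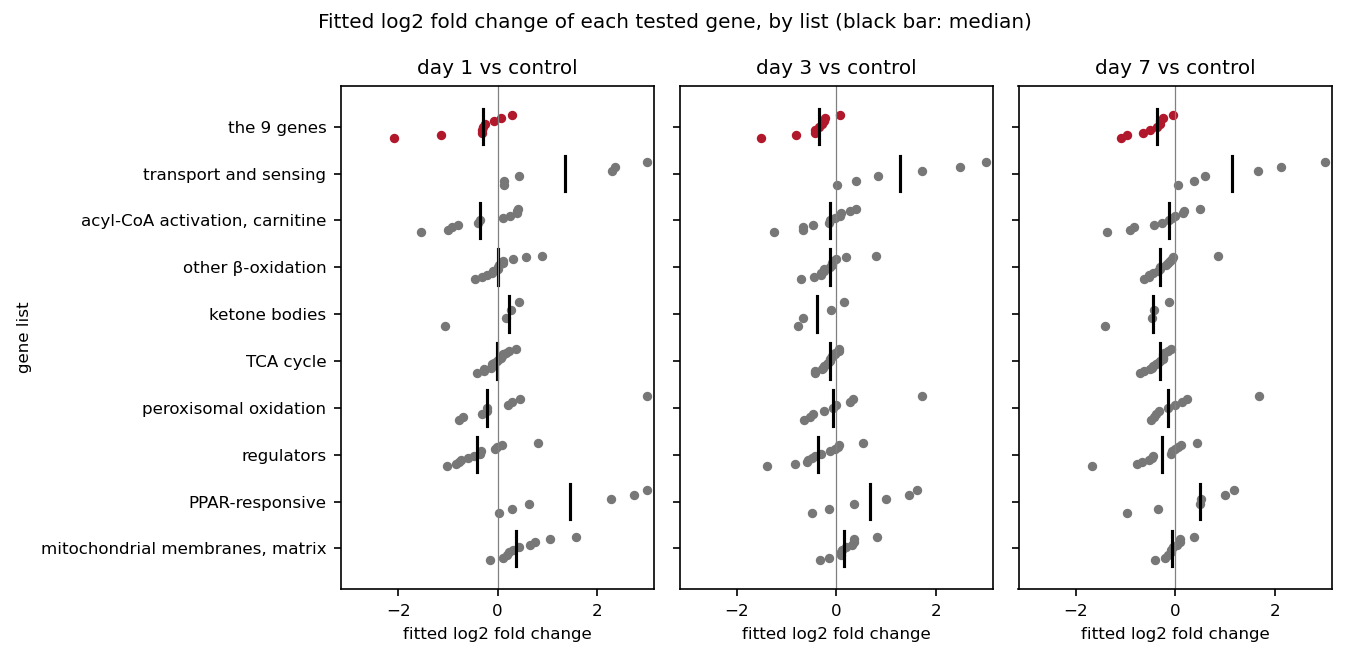
Fitted log2 fold change against the control (horizontal axes, both arms averaged) of each tested gene in the 9 genes (red) and in 9 lists of related genes (grey), by day, with values beyond 3 drawn at 3 and black bars for medians. The 9 genes lie mostly left of 0 on each day, with medians of -0.30, -0.34 and -0.37, and the TCA cycle is wholly left of 0 on day 7 only. Genes that did not pass the filter on low levels are not drawn, among them 4 of 10 in transport and sensing and 2 of 8 PPAR targets. Emb, Hcar2, Angptl4 and Acaa1b passed the filter only through treated libraries. They are drawn and enter the medians of their lists, so those medians lean to the right by selection.

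The gene whose profile over the 7 libraries lay nearest to the mean of the 9, by root mean square difference of centred log2(RPKM + 1) among 12052 other genes, was Cryl1 (0.0410), a crystallin-family enzyme gene, followed by Hmgxb3 (0.0467), Zc3h7b, Elmod3 (0.0518) and Itsn1 (0.0536). Nearest to Slc5a8 were Otc (0.143), ornithine transcarbamylase of the urea cycle, and Csad (0.149), an enzyme of taurine synthesis, and nearest to Ppargc1a was Retreg1 (0.144), an endoplasmic reticulum membrane protein. Otc was at 2.02, 4.09 and 3.63 RPKM in PhIP/DSS and 2.23, 1.31 and 1.98 RPKM in DSS, against 5.70 RPKM in the control. Retreg1 was at 15.3, 35.9 and 49.7 RPKM in PhIP/DSS and 25.3, 36.7 and 34.7 RPKM in DSS, against 91.3 RPKM in the control. The nearest genes to Slc5a8 and Ppargc1a thus differed from them by more than those of the other 7 did, whose nearest genes lay within 0.0536 (Endog for Acads at 0.0536, Hnrnph3 for Etfa at 0.0262). Among the 9, Slc16a1 and Acat1 were the closest pair (0.0790), and Slc5a8 and Ppargc1a lay 0.462 apart. These distances are descriptions over 7 libraries that share 1 control.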

How the data were processed

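Per the labels' protocols, colon epithelium was scraped from the muscle layer, RNA was enriched with oligo(dT), and random-primed libraries were sequenced. The deposited tables hold, per the file headers, the count of uniquely mapped reads of each gene, its length, the percent of it covered and an RPKM value, which the authors made from count, length and library total. The submitters' processing notes name mm10 and FastQC. The aligner, counting tool, annotation and use of strand were not given in the sources used here. A gene absent from a library's table was entered as 0 reads, and reads with more than 1 mapping place were not counted, so genes with near-identical copies can be undercounted. Reads covered 64.4% to 91.2% of the length of Ppargc1a and 65.1% to 69.7% of that of Acat1.

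Groups follow the labels, and the day codes in the table names, which differ from the label days, keep their order. Identifiers were matched to RefSeq GRCm38.p6, which gave a symbol to 17983 of 18036 genes. The others took up to 0.178% of a library's reads. The edgeR package 4.0.16 (R 4.3.3) was run on the deposited counts of the 12061 genes that reached 1 RPKM in 2 or more libraries, by its quasi-likelihood test with TMM scaling, Benjamini-Hochberg adjustment and calls at an adjusted p under 0.05, with a level for the control and each day plus 1 PhIP term. The spread came from how the difference between the arms varied over the days (common dispersion 0.0563), and the p-values speak only of the spread among these pooled samples. All 3 day-against-control comparisons use the same 1 control library. Ratios of single libraries used the deposited RPKM, whose median log2 ratio to the control over all genes stayed within -0.06 to 0.02, with no test. DESeq2 1.42.0, limma 3.58.1, other scalings and filters and left-out libraries were alternatives, and the fit was tested on simulated counts. There, for day 7 against the control, it called 4% and 2% of genes with a true log2 fold change of -1 and 1. At -2 and 2 it called 66% and 54%. Thus 0 calls at an adjusted p under 0.05 do not show that no gene changed.

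The 9 genes, the lists, the markers and the comparisons were chosen with earlier results of these data known. The genes named outside the 9 were Hcar2, Ffar2, Bsg, Ppara, Pparg and Hnf4a, the 3 of each list with the smallest edgeR p, of which those that add a value are given, the 5 nearest to the mean profile and the 2 nearest to each of the 9, likewise. Acsm3 and Ppargc1b were added after their values were seen, and 1 gene that the rule names is not reported here.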

Additional observations from a re-analysis of the deposited data

Results flagged for a closer look

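For 5 of the 9 genes the arms differed in opposite directions on different days, with 95% counting intervals of the PhIP/DSS to DSS ratio that left out 1 on both sides. With 1 library per condition these differences between days were not tested, and the intervals cover counting error only. Such intervals are narrow for genes with many reads, so ratios near 1 can leave out 1. The share of all genes with such a reversal was not counted, nor that of genes below 1 on day 1. No trait of the 9 is therefore read from either count. The Slc5a8 ratio was 0.740 on day 1, 2.22 on day 3 and 1.82 on day 7. The Ppargc1a ratio was 0.548 on day 1 and 1.35 on day 7. The ratios of the other 3 genes were nearer to 1, at 0.912, 1.22 and 0.904 on days 1, 3 and 7 for Acads, at 0.866 on day 1 and 1.18 on day 3 for Hadh, and at 0.876 on day 1 and 1.09 on day 3 for Acat1. On day 1 all 5 ratios were below 1, as were those of the rest of the 9. These were 0.778 for Cpt1a and, with counting intervals that included 1, 0.938 for Acadm, 0.967 for Slc16a1 and 0.983 for Etfa. On that day the summed neutrophil markers were at 797 RPKM in PhIP/DSS and 34.8 RPKM in DSS, on day 3 at 30.8 RPKM in PhIP/DSS and 1123 RPKM in DSS, and on day 7 at 68.3 RPKM in PhIP/DSS and 452 RPKM in DSS, and their part in these ratios was not tested.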

How the results depend on the processing

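No paired analysis was possible because each condition had 1 library and the labels number no replicates; the fit matches the arms only by day, and without the day term 0 of the 9 were called between the arms. The counts of called genes among the 9 stayed at 0 in all 5 comparisons with DESeq2 size factors, with library size only, with no filter, with at least 10 reads in at least 2 libraries and with limma at both pseudocounts. DESeq2 called 1 of the 9 on day 1, 1 on day 3 and 1 between day 7 and day 1, and a fit with no PhIP term called 1 on day 1. Leaving out each treated library in turn gave 0 to 5 on day 1, 0 to 4 on day 3, 0 to 4 on day 7, 0 to 3 between day 7 and day 1 and 0 to 1 between the arms, all counts above 0 coming from leaving out a day 1 library, and each of these fits had 1 residual degree of freedom. Over all genes, the 5 comparisons then gave 4280, 2142, 1896, 2986 and 282 calls without DSS day 1 and 1495, 2271, 2010, 786 and 324 without PhIP/DSS day 1. No filter gave 6, 3, 29, 0 and 0 calls, limma on log2(RPKM + 0.1) gave 6, 16, 42, 0 and 0, and a fit with no PhIP term gave 1305, 27, 59 and 57 in the 4 comparisons that have it. The cause was not tested. At 2-fold in place of 1.5-fold, 1 gene was below the control in DSS day 1, 2 in DSS day 7 and 0 in PhIP/DSS day 7, and with TMM-scaled RPKM 2 were 1.5-fold below it in DSS day 7. The left-out libraries turned the sign of Acads on day 1 (-0.0353 without DSS day 1, to 0.16), of Acat1 on day 1 (-0.21, to 0.0719 without PhIP/DSS day 1) of Ppargc1a between the arms (-0.49 to 0.15), and of Slc5a8 (to -0.48) and Acadm (to -0.06) between day 7 and day 1 without PhIP/DSS day 1, and of Slc5a8 there also without PhIP/DSS day 7. Values near 0 also turned with the scaling or tool, namely Hadh and Cpt1a between day 7 and day 1 and Acads, Hadh, Acat1 and Etfa between the arms.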
